A study of Mus musculus with 6 samples.

Results

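The genes described here are 33 genes of the T-cell lineage, measured in progenitors of the B-cell lineage. They were chosen by name for their roles in T cells, and each was placed in the bin of about 100 kb that holds its annotated start on mm10. Because Cd8a and Cd8b1 share a bin, and Cd3d and Cd3g share another, the 33 genes lie in 31 of the 23651 autosomal bins kept, on 14 chromosomes. Transcription factors fill 10 of the bins, and surface and signalling genes the other 21. Several bins are neighbours and are not independent: 7 lie next to another bin of the set, those of Cd28, Ctla4 and Icos, of Cd3d/Cd3g and Cd3e, and of Cd5 and Cd6. A bin of this size can hold other genes as well, and 12 of the 31 hold the start of 1 protein-coding gene only. No bin was lost to the filter on coverage.

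In situ Hi-C ligates pieces of DNA that are neighbours in the fixed nucleus, so that each sequenced read pair counts a contact between 2 places. There were 6 libraries, 2 biological replicates from each of 3 genotypes on the background that the labels give as C56BL/6. Erg KO cells were Rag1CreT/+;Erg fl/fl, in which Cre made in lymphoid progenitors removes Erg, a transcription factor of the ETS family. CreT control cells were Rag1CreT/+ with intact Erg, and Erg fl/fl control cells were Rag1Cre+/+;Erg fl/fl, with floxed alleles and no Cre. All cells came from marrow depleted of mature lineages, T cells included, which was kept for 8 days with OP9, a stromal line that supports B cells, and with the cytokines SCF, IL7 and FL, before selection for B220. Males gave replicate 2 of Erg KO and of the Erg fl/fl control, and females the remaining 4. The study treats the Erg KO cells as pre-proB and the wild-type cells as proB, so loss of Erg and developmental stage cannot be told apart. Hi-C holds no expression level, so B220 or T-cell transcripts could not be checked, and a contact lost in every cell cannot be told apart from one lost in some of the cells.

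Depth was 58335904 and 57259415 read pairs for Erg KO, 62155453 and 68085468 for the CreT control, and 43924865 and 29014581 for the Erg fl/fl control. Read pairs between different autosomes took 32.3% and 34.6% in Erg KO and from 21.6% to 26.8% in the 4 control libraries, so less of each Erg KO library was left for contacts at short range. At the median bin, local contacts, those with bins 200 kb to 2 Mb away, made up 16.4% and 15.7% of all contacts of the bin in Erg KO and from 18.6% to 25.1% in the controls. Erg fl/fl control replicate 2, the shallowest library, had the highest of these local shares and the lowest share between autosomes. The part of these library-wide differences in the results below was not tested. P-values rest on 2 libraries a genotype and measure the spread between these libraries.

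T-cell fate is set in the thymus when Notch1 is bound by its ligand. Notch signalling turns on Tcf7, Gata3 and then Bcl11b, factors that open the T-cell program and close off other fates, among them the B-cell one. The products of Cd3d, Cd3e, Cd3g and Cd247 form the signalling part of the T-cell receptor, Ptcra is its stand-in alpha chain in immature cells, and Lck, Zap70 and Lat carry its signal inward. Most of these genes are silent or low in B-cell progenitors, although some, such as Lef1 and Satb1, are used by early B cells too. Contacts at short range bring genes and their enhancers together inside domains, and the compartment score says whether a region keeps company with the gene-rich or the gene-poor part of the genome.

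Of the 31 bins, those of Cd3d/Cd3g and Gata3 lay furthest below and above bins of like composition in the change of local contacts (below). Their promoters and that of Cd3e are given here because Erg is an ETS factor and the core of ETS sites is GGAA. In RefSeq's tables for GRCm38.p6, the assembly of mm10, 24 of the 33 genes had a promoter entry. Of these, 9 held GGAAGT on either strand in the 250 bases before the start, as did 19.99% of 27025 promoters. The sequences below run 5′ to 3′ on the strand of the gene, at chr9:44981536-44981785 (plus strand), chr9:45009612-45009861, chr9:44980432-44980681 and chr2:9878601-9878850 (minus strand). Each ends at the base before the RefSeq start of transcription. Capitals mark GGAAGT, which reads ACTTCC on the other strand.
Cd3d: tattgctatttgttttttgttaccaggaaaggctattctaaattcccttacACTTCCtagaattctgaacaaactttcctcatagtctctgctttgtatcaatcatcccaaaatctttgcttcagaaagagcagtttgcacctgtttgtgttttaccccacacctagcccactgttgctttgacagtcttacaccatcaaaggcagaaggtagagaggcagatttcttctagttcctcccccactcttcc
Cd3e: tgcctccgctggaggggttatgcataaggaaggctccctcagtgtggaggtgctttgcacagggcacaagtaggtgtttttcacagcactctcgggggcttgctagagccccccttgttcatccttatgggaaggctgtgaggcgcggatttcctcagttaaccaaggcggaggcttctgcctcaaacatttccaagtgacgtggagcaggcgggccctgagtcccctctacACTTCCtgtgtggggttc
Cd3g: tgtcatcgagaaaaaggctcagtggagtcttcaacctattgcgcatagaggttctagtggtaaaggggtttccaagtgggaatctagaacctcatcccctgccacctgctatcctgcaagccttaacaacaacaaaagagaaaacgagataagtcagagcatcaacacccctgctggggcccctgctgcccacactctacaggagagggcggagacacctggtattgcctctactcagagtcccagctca
Gata3: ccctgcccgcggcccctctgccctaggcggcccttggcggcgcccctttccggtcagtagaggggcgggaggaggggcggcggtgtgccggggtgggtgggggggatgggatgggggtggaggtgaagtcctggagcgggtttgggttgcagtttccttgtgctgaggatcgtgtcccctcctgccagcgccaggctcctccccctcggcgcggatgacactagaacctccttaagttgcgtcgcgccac
Cd3d and Cd3e each held a single match to GGAAGT, Cd3g and Gata3 none. The shorter core GGAA, on one strand or the other, occurs in each of these sequences and was not counted. The motif is 6 letters long and a match is a description of the letters only. Binding of Erg was not measured in these libraries. RefSeq's start of Gata3 differs from that of GENCODE but lies in the same bin.

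In Erg KO, most bins of T-lineage genes had fewer local contacts as measured, and those of Gata3 and Themis had more. Most of these calls were lost when the trend over the G and C content of the bins was removed: 7 of the 31 bins then fell and 2, those of Gata3 and Bcl11b, rose, beside 17.8% and 15.1% of all bins, with a median change of -0.040. As measured, 26 of the 31 bins fell and 2 rose against both controls (edgeR quasi-likelihood test, adjusted p under 0.05), beside 33.2% of all bins that fell and 34.3% that rose. The median log2 change was -0.35 over the 31 bins and 0.0054 over all bins. Against the CreT control alone 25 fell and 1 rose, beside 30.2% and 30.2% of all bins, and against the Erg fl/fl control alone 22 fell and 2 rose, beside 31.5% and 32%. These comparisons share the Erg KO libraries. Each Erg KO value was lower than every control value in 24 bins and higher in 2, which held for 33.7% and 35.2% of all bins. When the 2 controls were compared with each other 0 of the 31 bins and 0 of all bins passed by edgeR, where 2 of the 31 and 9.23% of all bins had an unadjusted p under 0.05. Without Erg fl/fl control replicate 2 the median over the 31 bins was -0.31 with sex in the model. Erg KO replicate 2 is then the only male library and also drops out of that contrast. With that library left out and no term for sex, the median was -0.25. In a model without sex, which was added after seeing the data, 0 passed when replicate 1 of Erg KO was left out, 14 when its replicate 2 was and 13 when replicate 1 of the CreT control was.

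**Figure D1:**
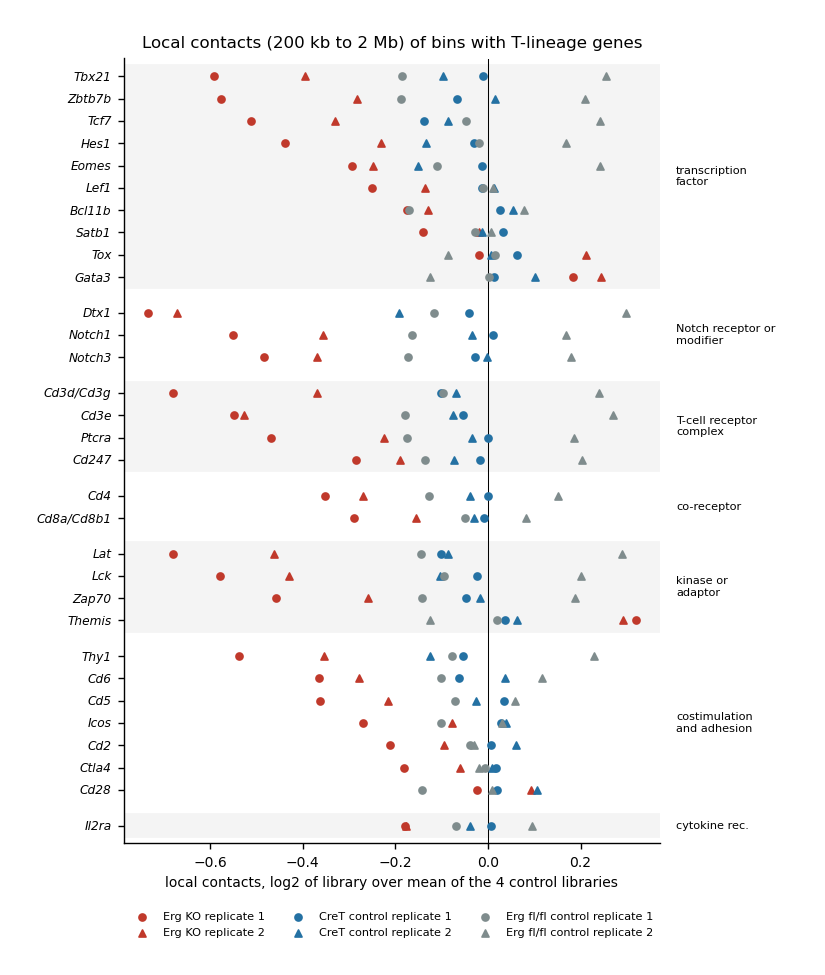
Local contacts (200 kb to 2 Mb) of the 31 bins in each library, as log2 of the library's normalised count over the mean of the 4 control libraries (x axis), by gene and role (y axis). Erg KO (red) lies left of the controls in most bins, with both replicates below all controls in 24 and above them in 2, Gata3 and Themis.

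Members of the T-cell receptor complex all fell as measured, in 4 bins. Those of Cd3d/Cd3g and Cd3e also passed with the trend over G and C content removed. Over all bins 33.2% fell as measured and 17.8% with the trend removed. The bin that holds Cd3d and Cd3g, at chr9:44899800-44999835, had 996 and 1237 normalised read pairs of local contact in the Erg KO libraries, 1489 and 1521 in the CreT control and 1492 and 1884 in the Erg fl/fl control. Both Erg KO values were below every control value, a log2 change of -0.60 ± 0.06 (SE; adjusted p = 6.5e-08). Cd3e, in the next bin, had 948 and 962 in Erg KO, against 1334, 1314, 1222 and 1669.7 in the controls, and changed by -0.59 ± 0.07 (adjusted p = 6.2e-07). Ptcra changed by -0.42 ± 0.06 and Cd247, which encodes the zeta chain, by -0.29 ± 0.06 (adjusted p = 2.8e-06 and 0.00035). Both co-receptor bins fell as well, that of Cd4 by 0.35 ± 0.06 and that of Cd8a/Cd8b1 by 0.25 ± 0.06 on the log2 scale (adjusted p = 4.9e-05 and 0.00084), and neither passed with the trend removed.

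The Notch genes fell in all 3 bins as measured, beside 33.2% of all bins. With the trend over G and C content removed 1 fell, that of Dtx1, beside 17.8% of all bins. Dtx1, which encodes a ubiquitin ligase of the Notch pathway and is itself switched on by Notch, had the greatest loss of the 31 bins. Its bin, at chr5:120700578-120799578, had 746 and 779 in Erg KO, 1205 and 1085 in the CreT control and 1144 and 1525 in the Erg fl/fl control, a change of -0.75 ± 0.07 (SE; adjusted p = 8e-08). The receptor gene Notch1 had 1095 and 1252 against 1615, 1565, 1431 and 1801 (-0.52 ± 0.06, adjusted p = 2.6e-07). Notch3 had 1124 and 1218 against 1543, 1571, 1396 and 1780.1 (-0.48 ± 0.06, adjusted p = 8.9e-07). In none of the 3 did the Erg KO values overlap those of the controls. With the trend removed Notch1 and Notch3 did not pass, at 0.045 and -0.052 (adjusted p = 0.51 and 0.43).

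Among kinases and adaptors, 3 of 4 bins fell and Themis rose, beside 33.2% of all bins that fell and 34.3% that rose. Lat encodes the membrane adaptor on which the receptor signal is assembled. Its bin, at chr7:126300332-126399708, had 860.3 and 1000.5 in Erg KO, 1285 and 1298 in the CreT control and 1248 and 1683 in the Erg fl/fl control, a change of -0.64 ± 0.06 (SE; adjusted p = 7.8e-08). Lck, the kinase that starts the signal, had 738 and 818 against 1084, 1025, 1031 and 1267 (-0.56 ± 0.06, adjusted p = 3.8e-07). Zap70, the kinase that follows it, changed by -0.42 ± 0.06 (adjusted p = 1.8e-06) and did not pass with the trend removed (0.0059). Themis, a protein of thymocyte selection, is named here after its values were seen. It had 728 and 714 in Erg KO and between 535 and 609 in the 4 control libraries, a change of 0.32 ± 0.07 (adjusted p = 0.00053) that did not pass with the trend over G and C content removed (0.023, adjusted p = 0.82). Its bin was the only one of the 31 whose local level in controls lay under the median of all bins, at 0.753 times that median.

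Of the 7 bins of costimulatory and adhesion genes 6 fell, beside 33.2% of all bins, with a median change of -0.21. With the trend removed 1 fell, that of Icos, beside 17.8% of all bins. Cd28, the main costimulatory receptor, had 839 and 911 in Erg KO and between 773 and 919 in the controls (0.0036 ± 0.065, adjusted p = 0.96). Thy1, a surface marker of T cells, had 872 and 991 against 1219.9, 1161, 1199 and 1483 (-0.50 ± 0.06, adjusted p = 6.9e-07). Cd6, Cd5, Icos, Cd2 and Ctla4 changed by -0.36, -0.32, -0.21, -0.17 and -0.14. Il2ra, the alpha chain of the IL2 receptor, changed by -0.20 ± 0.06 (adjusted p = 0.0076).

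Of the 10 bins of transcription factors 7 fell and 1 rose, with a median change of -0.26. Of the 21 other bins 19 fell and 1 rose, with a median of -0.36. Over all bins 33.2% fell and 34.3% rose. The role groups were not tested against each other. Tbx21, which directs the Th1 fate, had 915 and 1048 against 1367, 1288, 1212 and 1643 (-0.57 ± 0.06, adjusted p = 2.9e-07). Zbtb7b, the factor of the helper T-cell choice, had 906 and 1111 against 1289, 1365, 1186 and 1562 (-0.51 ± 0.06, adjusted p = 4.7e-07). Neither overlapped the controls, and neither passed with the trend removed (-0.13 and 0.093). Tcf7, Hes1, Eomes and Lef1 fell by 0.47, 0.38, 0.31 and 0.21 on the log2 scale, and Satb1 and Tox did not pass at -0.099 and 0.077. Gata3 and Bcl11b are described with their values below.

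Loss of local contacts followed base composition over the whole genome. G and C bases made up 47.0% of the median T-lineage bin and 41.5% of the median bin, and 14 of the 31 bins were among the 10% of bins with the most G and C (from 47.6%), where 96.7% of bins fell and the median change was -0.46. Over all 23651 bins the rank correlation of the change with G and C content was -0.848, across bins that share libraries and neighbours, and over the 31 bins -0.588. For the change between the 2 controls it was 0.124. Coverage moved in the same way. Those richest bins had 1.19 and 1.28 times the coverage of the median bin in Erg KO and from 1.36 to 1.52 times in controls, and the T-lineage bins 1.15 and 1.24 times against 1.34 to 1.46 times. The changes with either one taken out are given below. In 25 of the 31 bins the change lay within 0.2 of the median of bins of the same decile of G and C content and the same gene count (0, 1 or more protein-coding starts). In the other 6 it did not. The bins of Cd3d/Cd3g, Cd3e, Lat and Dtx1 lay below those medians by 0.39, 0.32, 0.28 and 0.26 on the log2 scale, and those of Gata3 and Bcl11b above by 0.59 and 0.25.

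**Figure D2:**
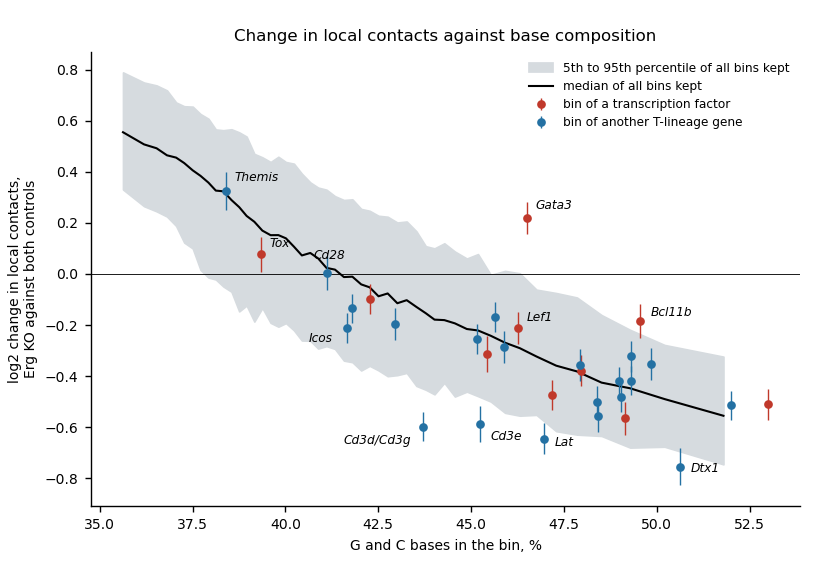
Log2 change in local contacts in Erg KO against both controls (y axis, bars are SE) by the G and C content of the bin in % (x axis), for the 31 bins (points) and all 23651 bins kept (line is the median, band the 5th to 95th percentile). Most T-lineage bins lie inside the band, with Gata3 at 0.22 and Bcl11b at -0.18 above it and Cd3d/Cd3g, Cd3e, Lat and Dtx1 below, from -0.59 to -0.75.

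With each library's own trend over G and C content removed, 7 of the 31 bins fell and 2 rose (edgeR), beside 17.8% and 15.1% of all bins, and the median change was -0.040. Those that fell were Cd3d/Cd3g, Cd3e, Lat, Lck, Dtx1, Tcf7 and Icos, and those that rose were Gata3 and Bcl11b. With an offset for the total contacts of each bin in place of that trend, 16 fell and 2 rose, beside 21.8% and 19% of all bins, with a median of -0.13. In all, 6 bins fell as measured and under both corrections, those of Cd3d/Cd3g, Cd3e, Lat, Lck, Dtx1 and Tcf7, and 1 rose in all 3, that of Gata3, beside 9.94% of all bins that fell and 7.34% that rose by all 3 criteria. Of the 10 bins of transcription factors 1 fell and 2 rose with the trend removed, and of the other 21 bins 6 fell and 0 rose.

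**Figure D3:**
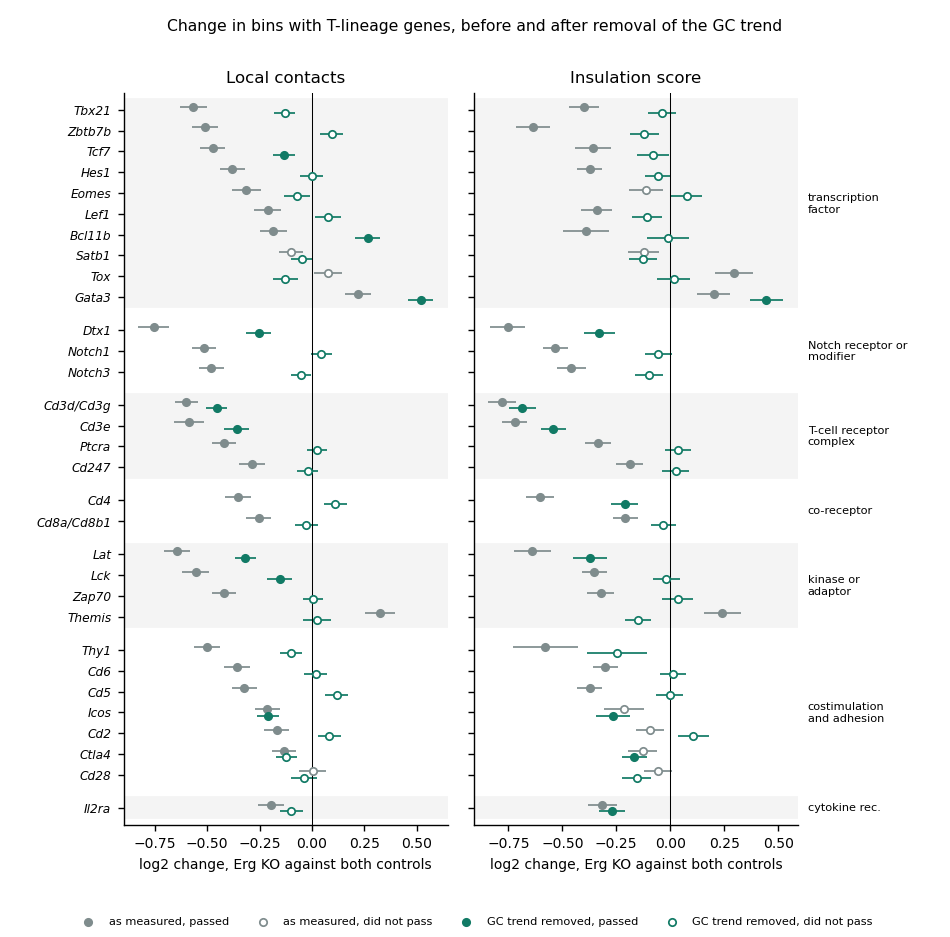
Log2 change in Erg KO against both controls in local contacts (left) and insulation score (right), with SE, for the 31 bins by role, as measured (grey) and with the trend over G and C content removed (green). Filled points passed at an adjusted p under 0.05. Gata3 moves right to 0.52 in local contacts when the trend is removed and Cd3d/Cd3g stays at -0.45.

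The CD3 genes kept most of their loss. With the trend removed, the bin of Cd3d/Cd3g had 1053 and 1273 read pairs in Erg KO, 1432 and 1473 in the CreT control and 1452 and 1725 in the Erg fl/fl control, still without overlap (-0.45 ± 0.05, SE; adjusted p = 8.7e-07). It lies at 43.7% G and C, where bins of like composition and gene count changed by a median of -0.21. Of the 11 bins from 5 before it to 5 after it, all 11 fell as measured and 10 with the trend removed. The bin of Cd3d and Cd3g itself was the lowest of them with the trend removed, and as measured the bin 100 kb before it was, at -0.71. Cd3e changed by -0.36 ± 0.06 (adjusted p = 0.00011), Lat by -0.32 ± 0.05 (adjusted p = 6.4e-05) and Dtx1 by -0.25 ± 0.06 (adjusted p = 0.0025). Around Dtx1 11 of 11 bins fell as measured and 8 with the trend removed. Beside the counts around both genes stand 33.2% of all bins as measured and 17.8% with the trend removed.

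Gata3, the factor that T cells need from their earliest stage, went the other way. Its bin, at chr2:9800350-9900081, had 1162 and 1211 read pairs in Erg KO, 1032 and 1097 in the CreT control and 1025 and 938 in the Erg fl/fl control. Both Erg KO libraries were above all controls, a change of 0.22 ± 0.06 (SE; adjusted p = 0.0036). The change passed against the Erg fl/fl control (0.27, adjusted p = 0.0022) and did not pass against the CreT control (0.17, adjusted p = 0.057). With the trend over G and C content removed it was 0.52 ± 0.06 (adjusted p = 2.2e-06), and the values were 1329 and 1310.1 against 969, 1038, 992 and 797. Of the 11 bins around it 6 rose and 0 fell, or 7 and 0 with the trend removed, where the bin of Gata3 was the highest. Over all bins 34.3% rose and 33.2% fell, or 15.1% and 17.8% with the trend removed. The gain passed on the side of lower coordinates and not on the other. Toward lower coordinates, where no protein-coding gene starts in the 5 nearest bins, local contacts changed by 0.39 ± 0.08 (adjusted p = 0.00023), and toward higher coordinates by -0.039 ± 0.086 (adjusted p = 0.71). The difference between the sides was not tested. On the side of lower coordinates 22 of the 31 bins fell and 2 rose, beside 29.5% and 30% of all bins, and on the other side 22 fell and 0 rose, beside 29.9% and 30.2%. Gata3 passed in 8 of 12 fits that left out a library, with changes from 0.15 to 0.33, and the 4 it did not pass in had no term for sex and left out a library of Erg KO or of the CreT control.

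Bcl11b, the factor that fixes T-cell commitment, was also uneven. Its bin, at chr12:107999999-108100196, had 814 and 841 in Erg KO and 935, 953, 817 and 970.1 in the controls, so that the groups overlapped (-0.18 ± 0.07, SE; adjusted p = 0.018). That call held in 3 of 12 fits that left out a library. With the trend removed the bin rose by 0.27 ± 0.06 (adjusted p = 0.0015), at 1005 and 951 against 857, 879, 788 and 769. Toward lower coordinates, a stretch where the 5 nearest bins hold no protein-coding start, its contacts changed by 0.15 ± 0.08 (adjusted p = 0.12), and toward higher coordinates, where Setd3 and Ccnk start in the next bin, by -0.67 ± 0.09 (adjusted p = 9.3e-07). Of its 11 bins 7 fell as measured, and with the trend removed 6 rose, beside 33.2% and 15.1% of all bins.

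Single bin pairs gave the partners of these changes. Of 322307 tested bin pairs 200 kb to 2 Mb apart, 898 have a T-lineage bin. Of the 898, 202 fell and 6 rose (edgeR with loess offsets, adjusted over all 431393 bin pairs), beside 7.04% and 4.56% of all bin pairs at these distances, with a median change of -0.40 against -0.022. With an offset for the G and C content of both bins 32 fell and 10 rose, beside 1.05% and 0.932%, with a median of -0.12. Dtx1, Cd3d/Cd3g, Lat, Notch1, Notch3, Zap70 and Zbtb7b had from 12 to 14 pairs each that fell. The CD3 bins kept 5 (Cd3d/Cd3g) and 4 (Cd3e) of 23 tested under the offset, and Lat 4 of 28. These counts move with 1 library. The fits that follow keep a term for sex. Leaving out either male library, replicate 2 of Erg KO or of the Erg fl/fl control, takes both out of the contrast. Their 2 counts are therefore 1 comparison. Against 208 pairs that passed in either direction with all libraries, 109 did so when replicate 1 of Erg KO was left out and 58 when replicate 2 was. The count was 137 when replicate 1 of the CreT control was left out and 59 when replicate 2 of the Erg fl/fl control was.

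The pair with the smallest p joined Dtx1 to the bin at -200 kb (negative distances lie toward lower coordinates), in which Tpcn1, Slc8b1, Plbd2 and Iqcd start. It had 55.1 and 78.1 normalised read pairs in Erg KO, 159.9 and 141 in the CreT control and 145 and 238 in the Erg fl/fl control (-1.52 ± 0.14, SE; adjusted p = 2.1e-16). Under the offset for G and C content it changed by -0.98 ± 0.15 (adjusted p = 3.9e-07). At -300 kb Dtx1 had 67.7 and 67.5 against 119, 99.7, 112 and 215 (-1.11 ± 0.15, adjusted p = 9.4e-09). In neither pair of Dtx1 did Erg KO overlap the controls. The Lat bin and the bin 300 kb after it had 70.6 and 84.2 against 130.0, 128, 150.1 and 216 (-1.09 ± 0.14, adjusted p = 5.6e-10), and this pair fell under the offset as well (-0.73 ± 0.14, adjusted p = 0.00026). Notch1 with the bin at -200 kb had 158 and 169 against 242, 227, 227 and 338 (-0.74 ± 0.10, adjusted p = 1.6e-08). Tbx21 with the bin at -200 kb had 93.0 and 129 against 189, 163, 162 and 231 (-0.88 ± 0.12, adjusted p = 1.7e-08). All 3 were lower in both Erg KO libraries than in any control. These pairs were picked for the smallest p, and the share of all bin pairs without overlap, in either direction, is not given here. Under the offset those of Notch1 and Tbx21 did not pass (-0.18 and -0.39, adjusted p = 0.44 and 0.063).

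Gains were few and sat at Gata3, Bcl11b, Themis and Lat. Of the 6 pairs that rose, 3 have a mean count of at least 20. Gata3 with the bin at -600 kb, which holds no protein-coding start, had 60.0 and 58.8 in Erg KO, 33.3 and 40.2 in the CreT control and 34.0 and 19.0 in the Erg fl/fl control (0.97 ± 0.22, SE; adjusted p = 0.00061). Gata3 with the bin at -1000 kb had 44.2 and 50.1 against 34.9, 33.3, 31.9 and 18.8 (0.69 ± 0.24, adjusted p = 0.034). In both the Erg KO values lay above every control value. Bcl11b with the bin at -600 kb had 44.4 and 26.3 against 21.5, 32.1, 16.5 and 14.4, where Erg KO replicate 2 overlapped the CreT control (0.93 ± 0.27, adjusted p = 0.011).

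**Figure D4:**
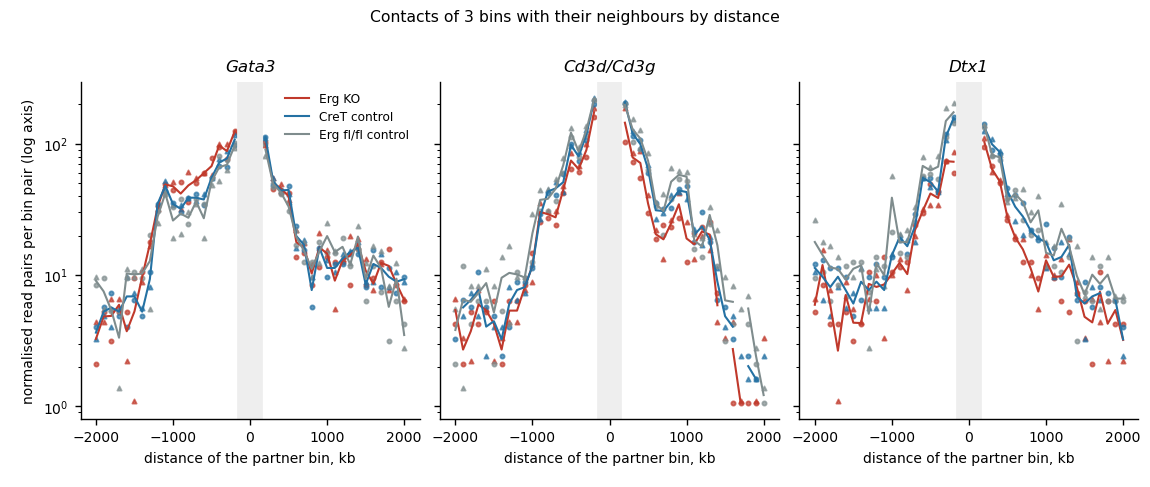
Normalised read pairs per bin pair (y axis, log scale) between the bins of Gata3, Cd3d/Cd3g and Dtx1 and the bins up to 2 Mb away (x axis, distance in kb, negative toward lower coordinates), per library (circles are replicate 1, triangles replicate 2) and as the mean of each genotype (lines, broken where a library has 0). The Erg KO mean runs above those of both controls from -200 to -1100 kb of Gata3, as at -600 kb with 60.0 and 59.6. These counts are scaled otherwise than those of the bin pair tests. Up to 800 kb on both sides of Cd3d/Cd3g and Dtx1 the Erg KO mean runs below those of both controls. Further out the order is mixed.

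The insulation score is the log2 of contacts that cross a bin, between the 5 bins before and the 5 after, over the mean of its chromosome. A fall means fewer crossing contacts, as at a stronger boundary. Of the 31 bins 22 fell and 3 rose in Erg KO (limma, adjusted p under 0.05), beside 28.3% and 39.1% of all bins, with a median change of -0.34 against 0.075. With the trend over G and C content removed 8 fell and 1 rose, beside 22.5% and 19%, with a median of -0.079. In the control libraries 9.68% of the T-lineage bins (those of Lat, Cd3d/Cd3g and Bcl11b) and 9.91% of all bins were domain boundaries, local minima of this score, and 41.9% and 29.7% lay within 1 bin of a boundary. Between the 2 controls 0 bins passed by limma, where 4 of the 31 and 11.2% of all bins had an unadjusted p under 0.05. In a model without sex, 0 of the 31 bins passed when either Erg KO library was left out, and 12 or 13 when replicate 1 or 2 of the CreT control was, against 25 with sex and all libraries.

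The greatest fall in crossing contacts was at Cd3d/Cd3g. Their bin scored -0.016 and 0.24 in Erg KO, 0.78 and 0.67 in the CreT control and 0.69 and 1.09 in the Erg fl/fl control (-0.78 ± 0.06, SE; adjusted p = 3.2e-05). That of Cd3e scored 0.039 and 0.40 against 0.83, 0.74, 0.74 and 1.10 (-0.72 ± 0.06, adjusted p = 3.2e-05). Both stayed lower with the trend removed (-0.69 ± 0.06 and -0.54 ± 0.06, adjusted p = 7.1e-05 and 0.00011). Dtx1 scored -0.24 and -0.15 against 0.42, 0.34, 0.37 and 0.83 (-0.75 ± 0.08, adjusted p = 3.7e-05), and Lat -0.43 and -0.32 against 0.26, 0.069, 0.071 and 0.44 (-0.64 ± 0.09, adjusted p = 9.8e-05). In these 4 bins no Erg KO value reached the lowest control value. Cd4 scored 0.043 and 0.24 against 0.59, 0.61, 0.56 and 0.93 (-0.60 ± 0.06, adjusted p = 3.7e-05). Notch1 scored 0.24 and 0.45 against 0.72, 0.74, 0.74 and 1.05 (-0.53 ± 0.06, adjusted p = 3.8e-05), and Zbtb7b 0.45 and 0.51 against 0.97, 0.89, 0.91 and 1.41 (-0.64 ± 0.08, adjusted p = 7.1e-05). Notch3, Cd5 and Hes1, a target of Notch, changed by -0.46, -0.37 and -0.37. None of these 6 overlapped between Erg KO and controls. All the bins of this paragraph were picked for a small p in this score. The share of all bins without overlap in it is not given here.

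Of these 10 bins with the smallest p, those of Cd4 (-0.21, adjusted p = 0.019), Dtx1 (-0.33), Lat (-0.37), Cd3d/Cd3g and Cd3e passed with the trend removed, and Notch1, Zbtb7b, Notch3, Hes1 and Cd5 did not, at -0.055, -0.12, -0.097, -0.058 and -0.0030. Ctla4, Icos and Il2ra passed as well, at -0.17, -0.27 and -0.27. Gata3 rose with 0.23 and 0.20 in Erg KO against 0.0045, 0.15, 0.11 and -0.091 (0.20 ± 0.08, adjusted p = 0.034; 0.45 ± 0.08 with the trend removed, adjusted p = 0.0011). Tox, a factor of thymocyte development, and Themis rose as measured by 0.30 and 0.24 and did not pass with the trend removed (0.015 and -0.15). Of the transcription factors 6 of 10 fell and 2 rose, and with the trend removed 0 fell and 1 rose. Of the other 21 bins 16 fell and 1 rose, and then 8 fell and 0 rose. Over all bins 28.3% fell and 39.1% rose, or 22.5% and 19% with the trend removed. The role groups were not tested against each other.

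On the compartment score the T-lineage genes sat on the gene-rich side. In controls 30 of the 31 bins were positive, against 48.1% of all bins, and 23 scored above 1, in units of the SD over a chromosome. Themis was the exception at a mean of -0.19. Below 0.6 lay 6 members, and 5 of them, Gata3, Bcl11b, Tox, Satb1 and Eomes, were transcription factors; the median was 0.56 over the 10 transcription factor bins and 1.40 over the other 21. The transcription factor bins also held fewer genes, a median of 1 protein-coding start against 3.

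In Erg KO 0 of the 31 compartment scores passed (limma), beside 1.44% of all bins that fell and 1.92% that rose, and 8 of the 31 and 27.9% of all bins had an unadjusted p under 0.05. The change was below 0 in 25 of 31 bins, against 49.6% of all bins, with a median of -0.062 against 0.00090. In 4 bins, those of Cd28, Dtx1, Cd8a/Cd8b1 and Satb1, each Erg KO value was lower than every control value, and in 1, that of Cd5, higher, which held for 12.9% and 14.9% of all bins. The Satb1 bin, whose gene encodes an organiser of thymocyte chromatin, had the greatest shift: it scored -0.53 and -0.12 in Erg KO, 0.15 and -0.081 in the CreT control and -0.054 and 0.12 in the Erg fl/fl control (-0.44 ± 0.09, SE; adjusted p = 0.072). Cd2 scored 1.11 and 1.01 against 0.93, 0.92, 1.02 and 0.83 (0.18 ± 0.04, adjusted p = 0.070), with an overlap. Ctla4 scored 1.29 and 1.43 against 1.49, 1.46, 1.37 and 1.61 (-0.17 ± 0.04, adjusted p = 0.084), also with an overlap. Zbtb7b, Themis, Eomes and Icos had changes of like size, -0.21, -0.19, -0.19 and -0.18, that did not pass. Gata3 had a control mean of 0.089 and changed by -0.012 ± 0.065.

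Over all bins, the scores of Erg KO replicate 2 correlated at 0.995 and 0.997 with the CreT control libraries and at 0.990 with Erg KO replicate 1, across bins that are not independent. The 2 Erg KO libraries also stood apart at Satb1, Themis (-0.52 and -0.089) and Tox (0.036 and 0.52). Counts that passed, and the median change over the 31 bins, depend on a single library. With a term for sex, the median was -0.091 and -0.0035 when replicate 1 or 2 of Erg KO was left out. It was -0.069 and -0.0035 when replicate 1 or 2 of the Erg fl/fl control was. Leaving out replicate 2 of either takes both male libraries out of the contrast, so these 2 fits are 1 comparison. Against each control alone 0 of all bins passed by limma. An unadjusted p under 0.05 was found for 8 of the 31 and 21.4% of all bins against the CreT control, and for 11 and 30.5% against the Erg fl/fl control.

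**Figure D5:**
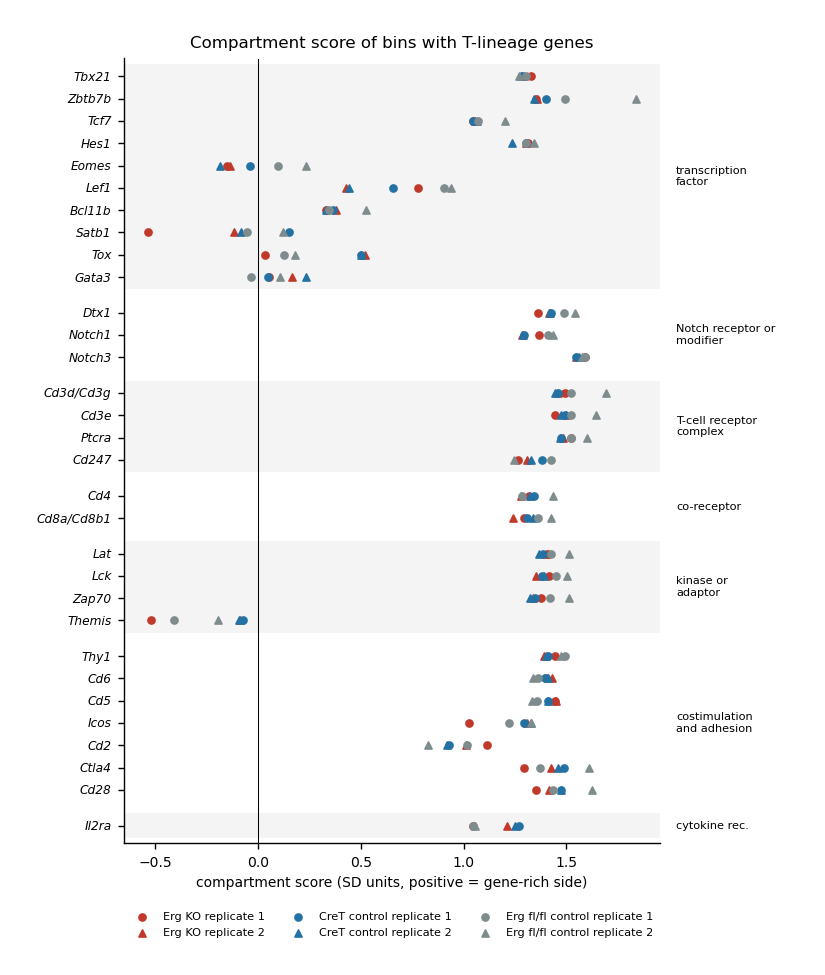
Compartment score in SD units (x axis, positive is the gene-rich side) of the 31 bins in each library, by gene and role (y axis). Most surface and signalling genes score above 1 in all 6 libraries, while Gata3, Bcl11b, Tox, Satb1, Eomes and Themis lie below 0.6, and the libraries of Erg KO and controls overlap in most bins.

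Other genes of the same pathways, from lists chosen by name, give the setting. Of 23 bins of other T-cell signalling genes 16 fell and 3 rose in local contacts, with a median of -0.28, and 7 fell and 0 rose with the trend removed, among them Gfi1 (-0.29 ± 0.06) and Sh2d2a (-0.27 ± 0.06). Of 17 bins of other Notch pathway genes 14 fell and 0 rose, with a median of -0.39, and 5 fell with the trend removed. Among these were Adam10, which encodes the sheddase that cuts Notch (-0.33 ± 0.05), and Nrarp, a feedback inhibitor (-0.34 ± 0.06). Among lists of other lineages, 25 fell and 1 rose of 30 bins of B-lineage genes, with a median of -0.27, and 20 fell and 0 rose of 21 bins of myeloid and NK genes, with a median of -0.42. With the trend removed 7 and 9 of these fell and 1 and 1 rose. Of 19 bins of stromal genes, which lie at a lower G and C content (median 41.9%), 6 fell and 5 rose. The counts as measured stand beside 33.2% of all bins that fell and 34.3% that rose, and those with the trend removed beside 17.8% and 15.1%. The lists were not tested against each other.

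Contacts between T-lineage bins on different chromosomes were rare. Over 436 bin pairs there were 81 and 70 read pairs in Erg KO, 76 and 97 in the CreT control and 51 and 37 in the Erg fl/fl control, which is 1.68, 1.25, 1.45, 1.59, 1.56 and 1.71 times the number expected from the coverage of both bins. Of the Erg KO ratios 1 lay below those of all controls and the other among them. For the 30 bins of B-lineage genes the ratios were 1.11 and 1.25 in Erg KO and from 1.45 to 1.85 in controls. Bins with a positive compartment score, where 30 of the 31 lie, were at 1.12 to 1.13 times in every library.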

How the data were processed

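The authors trimmed reads with cutadapt 0.9.5, aligned them to mm10 with bowtie2 2.2.5 and used diffHic 1.14.0 to mark duplicates, remove dangling ends and fragments over 1000 bp, and count read pairs in bins of about 100 kb. The deposited values are these raw counts, 1 table per library, for pairs of bins. From them 3 readouts were computed per bin: local contacts (200 kb to 2 Mb), an insulation score (5 bins on either side, log2) and a compartment score (first component of the smoothed observed over expected contacts of a chromosome, signed by gene density, SD 1). Autosomal bins with total contacts between 0.3 and 3 times the median were kept, 23651 of 24067. The loess trend over G and C content was fitted per library (span 0.3). Read totals per library are in the report, and their number limits precision at the level of bin pairs.

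Gene starts came from GENCODE M21 for mm10 and promoters from RefSeq GRCm38.p6. Local contacts and bin pairs were tested with edgeR 4.0.16 (quasi-likelihood, TMM or loess offsets) and the scores with limma 3.58.1 in R 4.3.3, with genotype and sex in the model as in the study's methods and Benjamini-Hochberg adjustment over all features at 0.05. Bin pairs needed a count of at least 10 and 5 times the background between chromosomes. DESeq2 1.42.0, other scalings, windows and filters, a replicate block, models without sex and each library left out were the alternatives; the models without sex that also left out a library were added after seeing the data. Tables and figures used Python 3.11.15. On simulated data, changes of 0.5 and 1 (log2) in local contacts were recovered in 97% and 99% of 100 bins each over 23651 bins. Changes of 0.3 and 0.6 were recovered in 41% and 99% for insulation over 23477 bins, and in 87% and 95% for the compartment score over 23651. For bin pairs, changes of 1 and 2 were recovered in 54% and 95% of 100 pairs each over 431393. The changed pairs were drawn only from those with a mean count of at least 20. In all simulations few features changed, and none held a trend over G and C content or an effect of sex.

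The members, gene lists and tests were chosen with earlier results of these data known. Genes given library by library are those that passed with the smallest p, at most 10 per readout, or the 3 with the smallest p where none passed; for bin pairs, the 5 with the smallest p in each direction with a mean count of at least 20. Gata3, Bcl11b, Themis and Cd28 in local contacts, Gata3 in insulation and Icos, Eomes and Zbtb7b in the compartment score were named after their values were seen.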

Additional observations from a re-analysis of the deposited data

How the results depend on the processing

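Of the recomputed counts and medians over the 31 bins and their bin pairs, 111 stayed close to the reported value and 39 moved. In local contacts 28 bins passed with a median of -0.35, against 18 and -0.13 with the offset for bin coverage and 9 and -0.040 with the trend over G and C content removed. Leaving out each library in turn, with and without sex in the model, gave 0 to 28 bins and medians from -0.446 to -0.231. In insulation 25 bins passed with a median of -0.34, against 9 and -0.079 with the trend removed, and 0 to 27 and medians from -0.408 to -0.236 with a library left out. In the compartment score 0 passed, and 3 without smoothing (Ctla4, Dtx1 and Satb1), where the share of all bins that passed is not given here. With a library left out its medians ran from -0.0908 to -0.00352. In some of these fits, all with sex in the model, bins did pass, so the absence of calls also depends on single libraries. Of bin pairs 208 passed, against 106 without sex, 42 (median -0.12) with the G and C offset, 26 with DESeq2, and 2 to 235, with medians from -0.502 to -0.249, with a library left out. The lowest of these counts came without Erg KO replicate 1 and without sex, when 0 bins passed in local contacts and insulation and 2 bin pairs, and in insulation 0 also passed without Erg KO replicate 2 and sex. With sex in the model a lone male library sets its own term, so leaving out either male library also takes the other out of the contrast.

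Replicate numbers did not pair the libraries: same-numbered deviations correlated at -0.17, 0.54 and -0.39 in local contacts over the 3 pairs of genotypes. With a replicate block 23 bins passed in local contacts, 20 in insulation, 0 in the compartment score and 111 bin pairs.

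For single genes 1456 recomputed values kept their direction and side of the threshold, 246 lost and 47 gained the call and 18 changed sign. With the trend removed, local contacts changed by 0.0059 at Zap70, 0.045 at Notch1, 0.093 at Zbtb7b, 0.083 at Cd2, 0.076 at Lef1, 0.11 at Cd4, 0.27 at Bcl11b, 0.024 at Ptcra, 0.12 at Cd5 and 0.018 at Cd6, and insulation by 0.035 at Zap70, 0.024 at Cd247, -0.15 at Themis, 0.038 at Ptcra and 0.012 at Cd6. With the coverage offset local contacts changed by 0.026 at Cd2 and 0.049 at Bcl11b, and between 500 kb and 2 Mb by 0.0093 at Bcl11b. The cause was not tested. The shallowest library held 29014581 read pairs, and how far depth limits the counts was not tested.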
